A study of Homo sapiens with 27 samples.

Results

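INHBE, GDF15, STC2 and ADM2 encode secreted proteins whose RNA is known to rise when cells are under stress, and they were taken as a set by name, 4 of the 27115 genes in the deposited tables. RNA was sequenced from 3 lines of diffuse large B-cell lymphoma (DLBCL), a cancer of mature B lymphocytes, on day 8 after lentiviral infection. Karpas422 stood for the subtype with high expression of oxidative phosphorylation genes, OCI-LY1 (OCI-Ly1 in the labels) for the germinal center B-cell like subtype and HBL1 for the activated B-cell like subtype. Each line carried a scramble short hairpin RNA (shCTRL), shSIRT3-1 or shSIRT3-2, with 3 libraries in each of the 9 groups. Both SIRT3 hairpins are directed at the RNA of SIRT3, a protein deacylase of mitochondria, and all 3 vectors share a puromycin resistance and fluorescent marker backbone. No uninfected cells were among the samples, and each subtype was represented by 1 line. Nothing in the labels says that replicates came from separate cultures, so the p-values measure the spread between these libraries, which may be technical.

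ATF4 is the transcription factor that the integrated stress response brings up. Phosphorylation of eIF2 alpha slows most translation but favors that of ATF4 mRNA, and ATF4 then induces genes of amino acid uptake and synthesis, together with a small number of secreted factors. INHBE encodes the beta E chain of the inhibins and activins, a hepatokine in whole-body metabolism. GDF15 is a distant relative of the TGF beta family that acts on appetite through its receptor GFRAL in the hindbrain. STC2, stanniocalcin 2, is a glycoprotein that inhibits pappalysins and so restrains the release of insulin-like growth factors. ADM2, also called intermedin, is a peptide of the calcitonin family that signals through the CALCRL receptor with a RAMP partner. Only RNA was measured here, not secreted protein.

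INHBE and ADM2 fell with both SIRT3 shRNAs in Karpas422 and HBL1, to between 1.73% and 25.0% of the mean of the shCTRL libraries of the same line. STC2 was present in HBL1 and close to absent in the other 2 lines, and it fell in HBL1 to 10.1% and 9.90% of control. GDF15 was low, with no group mean above 0.525 CPM. In OCI-LY1, INHBE and ADM2 were high in a single shCTRL library, and without that library no decrease of ADM2 was detectable.

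The window before the start of transcription was read for 3 of the 4 genes from RefSeq (build GRCh38.p14), whose table has no entry for INHBE. The sequences are shown to look for TGATGNAA, the composite element to which ATF4 binds together with C/EBP proteins. Each sequence is the 250 bases before the annotated start, on the strand of the gene. Capitals mark a match on either strand to GGGCGG, the GC box of SP1, or to TATAAA, the TATA box, and none of the 3 motifs overlaps another in these windows. STC2 lies at chr5:173328415-173328664 (minus strand), GDF15 at chr19:18385908-18386157 (plus strand) and ADM2 at chr22:50481293-50481542 (plus strand).
STC2: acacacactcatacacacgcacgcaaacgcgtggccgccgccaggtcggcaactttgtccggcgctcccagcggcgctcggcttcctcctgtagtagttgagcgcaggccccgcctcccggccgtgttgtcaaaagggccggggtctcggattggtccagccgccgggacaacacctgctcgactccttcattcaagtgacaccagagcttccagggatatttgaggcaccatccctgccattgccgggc
GDF15: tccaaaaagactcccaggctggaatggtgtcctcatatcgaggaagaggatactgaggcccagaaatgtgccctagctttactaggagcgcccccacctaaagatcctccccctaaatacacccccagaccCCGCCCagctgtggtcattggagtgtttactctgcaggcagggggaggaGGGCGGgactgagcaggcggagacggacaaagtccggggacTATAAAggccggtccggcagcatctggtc
ADM2: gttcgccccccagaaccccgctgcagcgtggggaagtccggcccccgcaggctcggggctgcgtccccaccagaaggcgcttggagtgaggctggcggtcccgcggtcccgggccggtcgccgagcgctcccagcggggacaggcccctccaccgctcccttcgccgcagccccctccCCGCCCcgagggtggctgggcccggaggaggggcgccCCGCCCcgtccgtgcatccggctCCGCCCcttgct

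ADM2 held 3 GC boxes and no TATA box, and 78.8% of its window was G or C, against a median of 58.0% over the 35116 promoter windows. GDF15 held 2 GC boxes and a TATA box that begins 29 bases before the start, with 58.4% G or C. STC2 held neither motif, with 63.6% G or C. Of all windows of this length, 42.6% hold GGGCGG and 10.7% hold TATAAA on at least 1 strand. TGATGNAA was in none of the 3 windows and in 3.14% of all windows. It was in 5 of the 36 windows (13.9%) that matched genes of a list of 30 ATF4 targets and integrated stress response genes, those of ASNS, ATF3, CEBPG, CHAC1 and JDP2. The 30 bases around 4 of these matches are shown for comparison, with the match in capitals, and in CHAC1 it stands on the opposite strand.
CHAC1: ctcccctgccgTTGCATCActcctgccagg
ASNS: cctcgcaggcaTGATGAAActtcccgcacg
CEBPG: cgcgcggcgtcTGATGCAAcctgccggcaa
ATF3: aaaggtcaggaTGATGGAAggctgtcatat

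The matches begin 209 bases before the start in CHAC1, 68 in ASNS, 42 in CEBPG and 191 in ATF3. A window without a match says only that these letters are not in those bases, and elements elsewhere in the genes were not searched.

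The libraries held between 28694398 and 53405456 reads on genes, with a median of 45669254. Values are counts scaled to library totals (CPM), so 3 reads, the limit that a count of 0 allows, correspond to between 0.0249 and 0.0472 CPM. SIRT3 lay below the lowest shCTRL library of its own line in all 18 knockdown libraries. Over 3 lines it changed by -2.45 on the log2 scale with shSIRT3-1 (SE 0.17, adjusted p = 3.81e-10) and by -1.37 with shSIRT3-2 (SE 0.17, adjusted p = 2.21e-06), both in limma on log2(CPM + 0.1), with p adjusted over all genes tested. The summed level of 5 B-cell markers was between 1332 and 2130 CPM in the shCTRL libraries, between 1537 and 2116 with shSIRT3-1 and between 935.3 and 1559 with shSIRT3-2. Of 8 markers of other blood and stromal cells, 5 stayed under 1 CPM in every library, and the summed level of the 8 was between 0.257 and 65.8 CPM. In HBL1, COL1A2 was between 12.6 and 15.2 CPM with shCTRL, between 1.72 and 4.92 with shSIRT3-1 and between 36.8 and 62.0 with shSIRT3-2, while EPCAM was between 4.72 and 7.27 CPM with shCTRL, between 3.61 and 4.40 with shSIRT3-1 and between 3.50 and 4.27 with shSIRT3-2. Over 3 lines EPCAM was called lower with shSIRT3-2 (-0.62, limma adjusted p = 0.00188). COL1A1 did not exceed 0.314 CPM in any library. What part these marker levels have in the values of the hormone genes was not tested. In bulk RNA, fewer cells of a kind and less RNA per cell cannot be told apart.

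OCI-LY1 shCTRL replicate 2 stood apart from the other 2 shCTRL libraries of its line. Among the 9 OCI-LY1 libraries it held the highest value for 28 of the 29 ATF4 list genes that passed the filter on low values, at least 1 CPM in 3 libraries, 96.6%, against 20.0% of all 13076 genes tested. ATF4 itself was 2.32-fold, CHAC1 31.9-fold and ASNS 3.66-fold above the mean of the other shCTRL libraries of OCI-LY1. For INHBE and ADM2, levels and tests that rest on this library are followed by those without it, and some INHBE differences are given with no test.

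INHBE is on chromosome 12 of hg19 between positions 57846106 and 57853063, on the plus strand. In Karpas422 it was at 58.4, 60.3 and 47.3 CPM in the shCTRL libraries, at 6.50, 6.88 and 2.07 CPM with shSIRT3-1 and at 1.11, 1.62 and 0.559 CPM with shSIRT3-2. All 3 groups were separate, with shSIRT3-2 lowest. In HBL1 the shCTRL libraries held 23.5, 26.7 and 19.8 CPM, those with shSIRT3-1 held 0.625, 0.636 and 0.693 CPM, and those with shSIRT3-2 held 1.24, 1.11 and 1.52 CPM. Here too the groups did not overlap, but the order of the hairpins was the opposite one. How many of all genes have groups this separate was not counted, which applies to the genes below as well. In OCI-LY1 the shCTRL libraries held 0.103, 11.6 and 0.458 CPM, so replicate 2 alone was above 1 CPM. The OCI-LY1 knockdown libraries held 0.272, 0.349 and 0.248 CPM with shSIRT3-1 and 0.0990, 0.157 and 0.177 CPM with shSIRT3-2, a range that overlaps the other 2 controls.

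ADM2 is on chromosome 22 of hg19 between positions 50919972 and 50924869, on the plus strand. In HBL1 it was at 30.6, 37 and 56.1 CPM with shCTRL, at 11.3, 6.83 and 12.8 CPM with shSIRT3-1 and at 3.27, 2.95 and 4.18 CPM with shSIRT3-2. The groups were separate and stepped down from the control to shSIRT3-1 to shSIRT3-2. Karpas422 started from a lower level, with 3.55, 4.75 and 4.21 CPM with shCTRL, 0.204, 0.206 and 0.350 CPM with shSIRT3-1 and 0.0813, 0.0928 and 0.0424 CPM with shSIRT3-2. The same order was seen there, and the 3 libraries with shSIRT3-2 held only 9, 10 and 5 reads. OCI-LY1 held 3.87, 51.9 and 4.96 CPM with shCTRL, 4.01, 7.70 and 4.84 CPM with shSIRT3-1 and 3.57, 5.36 and 4.48 CPM with shSIRT3-2. Apart from shCTRL replicate 2, the OCI-LY1 libraries overlapped between all 3 groups.

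STC2 is on chromosome 5 of hg19 between positions 172741726 and 172755450, on the minus strand. HBL1 held 29.1, 28.8 and 25.1 CPM with shCTRL, 3.53, 3.04 and 1.78 CPM with shSIRT3-1 and 2.25, 3.14 and 2.83 CPM with shSIRT3-2. The knockdown libraries of both hairpins overlapped each other and lay below every control. In Karpas422 and OCI-LY1 no library held more than 8 reads, at most 0.0692 CPM. STC2 therefore passed the filter over 27 libraries through HBL1 alone.

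GDF15 is on chromosome 19 of hg19 between positions 18485541 and 18499986, on the plus strand. It was at or above 1 CPM in 1 of the 27 libraries, Karpas422 shSIRT3-1 replicate 3 with 1.15 CPM, and so did not pass the filter in any fit. In Karpas422 it held 9, 4 and 7 reads with shCTRL, 30, 12 and 108 reads with shSIRT3-1 and 1, 4 and 1 reads with shSIRT3-2. In HBL1 it held 7, 10 and 25 reads with shCTRL, 1, 1 and 2 reads with shSIRT3-1 and 18, 11 and 33 reads with shSIRT3-2. In CPM the groups with shSIRT3-1 were separate from the controls in both lines, above them in Karpas422 and below them in HBL1. The group with shSIRT3-2 lay below the controls in Karpas422 and overlapped them in HBL1. These orders rest on few reads, and how many of all genes separate in this way was not counted. In OCI-LY1 no library held more than 8 reads.

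**Figure D1:**
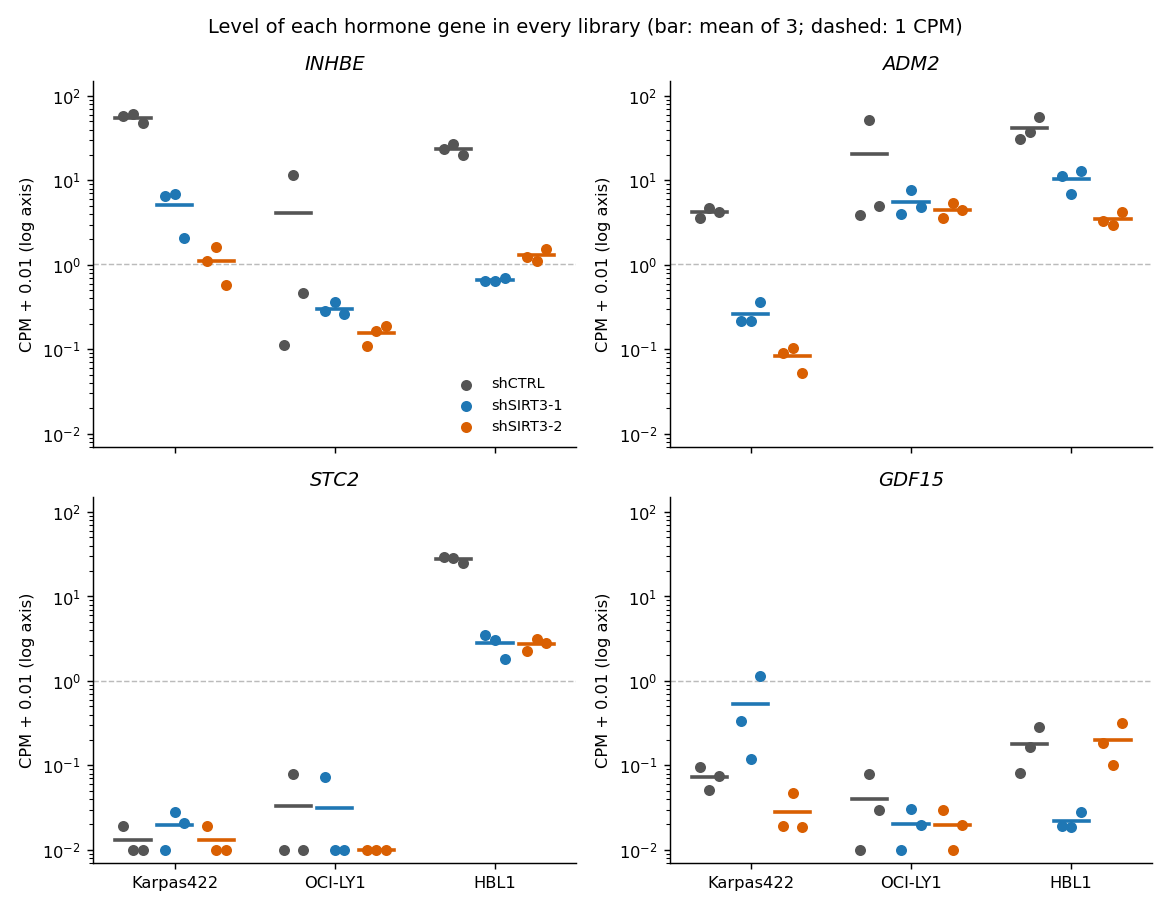
Each point is 1 library, plotted as CPM plus 0.01 on a log axis, for INHBE, ADM2, STC2 and GDF15 in the 3 lines and 3 hairpins, with a bar at the mean of 3 libraries and a dashed line at 1 CPM. INHBE and ADM2 lie below the controls with both hairpins in Karpas422 and HBL1, the OCI-LY1 control group is pulled up by 1 library at 11.6 CPM for INHBE and 51.9 CPM for ADM2, and STC2 is above 1 CPM in HBL1 alone.

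Levels before knockdown were compared among the 9 shCTRL libraries. Per kilobase of exon, INHBE was highest in Karpas422, at 18.2 ± 2.31 CPM per kb (SD, n = 3), followed by HBL1 at 7.65 ± 1.13 and OCI-LY1 at 1.33 ± 2.14. ADM2 was highest in HBL1 at 9.61 ± 3.10 CPM per kb, followed by OCI-LY1 at 4.72 ± 6.39 and Karpas422 at 0.972 ± 0.139. Without shCTRL replicate 2 the OCI-LY1 mean was 0.0921 CPM per kb for INHBE and 1.03 for ADM2, which is then near that of Karpas422. STC2 was at 5.47 ± 0.445 CPM per kb in HBL1. ATF4, by comparison, was at 125 ± 18 CPM per kb in Karpas422 and 116 ± 12.8 in HBL1, with OCI-LY1 at 77.4 ± 41.3, or 53.7 without that library.

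Many genes passed the thresholds between lines, which were a fold change above 1.5 and an adjusted p under 0.05 in limma. The share was 50.8% for OCI-LY1 against Karpas422 and 54.6% for HBL1 against each of the other lines. ADM2 was higher in HBL1 than in Karpas422 by 3.24 on the log2 scale (SE 0.77, limma adjusted p = 0.00352). Its difference between HBL1 and OCI-LY1 was 1.98 (SE 0.77, limma adjusted p = 0.0418), a call that was lost in 14 of 21 alternatives, among them edgeR with an adjusted p of 0.288, while without OCI-LY1 shCTRL replicate 2 it was 3.16 (limma adjusted p = 4.06e-06). ADM2 in OCI-LY1 and Karpas422 was not called apart (1.26, SE 0.77, limma adjusted p = 0.178, and 0.08 without that library, limma adjusted p = 0.812). The difference of INHBE was -5.65 (SE 1.11) for OCI-LY1 against Karpas422 and 4.40 (SE 1.11) for HBL1 against OCI-LY1. The latter was 2.47 in edgeR and 4.03 without replicate 3 of every group. Without OCI-LY1 shCTRL replicate 2 these differences were -7.35 and 6.11. All are given with no test, since only 1 OCI-LY1 control, replicate 2, held INHBE at 1 CPM or above. INHBE thus passed the filter through the other lines, where it was high. INHBE in HBL1 and Karpas422 did not differ beyond the spread (difference -1.25, 95% CI -3.72 to 1.22, limma adjusted p = 0.340), but without OCI-LY1 shCTRL replicate 2, which enters the common estimate of the spread, that adjusted p was 0.0062. For STC2 no test or fold between lines is given, since it passed the filter through the HBL1 controls alone, and the 3 control libraries of Karpas422 held 1 read together and those of OCI-LY1 held 8.

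Over the 3 lines, INHBE changed by -3.34 on the log2(CPM + 0.1) scale with shSIRT3-1 (SE 0.57, limma adjusted p = 6.80e-05) and by -3.96 with shSIRT3-2 (SE 0.57, limma adjusted p = 1.04e-05). It had rank 4 from the lowest fold change with shSIRT3-1 and rank 2 with shSIRT3-2 among the 13076 genes tested. ADM2 changed by -2.17 (SE 0.43, limma adjusted p = 0.000309) and by -3.10 (SE 0.43, limma adjusted p = 5.92e-06). Of the 18 knockdown libraries, 13 lay below every control of their line for INHBE, and 13 for ADM2, a count not made over all genes. STC2 changed by -1.08 (SE 0.37, limma adjusted p = 0.0239) and by -1.18 (SE 0.37, limma adjusted p = 0.0144), an average over 1 line with the gene and 2 lines with almost none. Without OCI-LY1 shCTRL replicate 2 the changes were -3.04 and -3.66 for INHBE and -1.99 and -2.93 for ADM2, each still called. Both hairpins are compared with the same control libraries. The 3 genes tested were called lower with each hairpin, where 9.09% of all genes were called lower with shSIRT3-1 and 10.2% with shSIRT3-2. INHBE and ADM2 kept the call in all 43 alternatives with each. These averages do not describe each line, since ADM2 in OCI-LY1 changed by 0.27 and 0.01 without shCTRL replicate 2. The call of STC2 with shSIRT3-1 was lost in 9 of 42 alternatives, including DESeq2 (adjusted p = 0.336), and without any 1 of the 3 HBL1 shCTRL libraries (adjusted p between 0.0573 and 0.0608) or HBL1 shSIRT3-1 replicate 3 (adjusted p = 0.0516).

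Fitted alone, Karpas422 gave a log2 fold change of INHBE of -3.57 with shSIRT3-1 (SE 0.45, limma adjusted p = 0.000614) and of -5.63 with shSIRT3-2 (SE 0.45, limma adjusted p = 6.42e-05). ADM2 changed by -3.61 (SE 0.24) and -4.63 (SE 0.24). In this line ADM2 passed the filter through the 3 shCTRL libraries alone, so that it could enter the fit only as a gene that is high there. No p or rank is therefore given for ADM2 from this fit. In a model of all 9 groups it passed the filter through HBL1 and OCI-LY1. Its changes in Karpas422 then had limma adjusted p = 9.95e-05 and 6.88e-06 (SE 0.57 each). In this line 11.5% of genes were called lower with shSIRT3-1 and 9.44% with shSIRT3-2. Among 11235 genes, INHBE had rank 9 from the lowest fold change with shSIRT3-1 and rank 2 with shSIRT3-2.

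In HBL1, INHBE changed by -4.95 with shSIRT3-1 (SE 0.17, limma adjusted p = 1.70e-06) and by -4.07 with shSIRT3-2 (SE 0.17, limma adjusted p = 1.49e-05). ADM2 changed by -1.99 (SE 0.29, limma adjusted p = 0.00112) and by -3.50 (SE 0.29, limma adjusted p = 0.000114). STC2 changed by -3.32 (SE 0.24, limma adjusted p = 6.28e-05) and by -3.30 (SE 0.24, limma adjusted p = 7.30e-05). In HBL1, 18.8% of genes were called lower with shSIRT3-1 and 16% with shSIRT3-2. Among 11862 genes, INHBE had rank 5, STC2 rank 42 and ADM2 rank 237 with shSIRT3-1, and 14, 33 and 24 with shSIRT3-2.

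In OCI-LY1, ADM2 was the only one of the 4 genes that passed the filter of the line, and it was not called with either hairpin (-0.91, 95% CI -2.66 to 0.85, limma adjusted p = 0.480, and -1.17, 95% CI -2.92 to 0.59, limma adjusted p = 0.353). Without shCTRL replicate 2 the estimates were 0.27 (limma adjusted p = 0.586) and 0.01 (limma adjusted p = 0.988). Few genes were called lower in this line, 2.45% with shSIRT3-1 and 4.26% with shSIRT3-2. INHBE was not tested in OCI-LY1 alone, and its control mean without replicate 2 was 0.281 CPM, against 0.290 with shSIRT3-1 and 0.144 with shSIRT3-2. SIRT3 itself changed in OCI-LY1 by -2.78 with shSIRT3-1 (SE 0.26, limma adjusted p = 0.00236) and by -1.08 with shSIRT3-2 (SE 0.26, limma adjusted p = 0.0351).

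**Figure D2:**
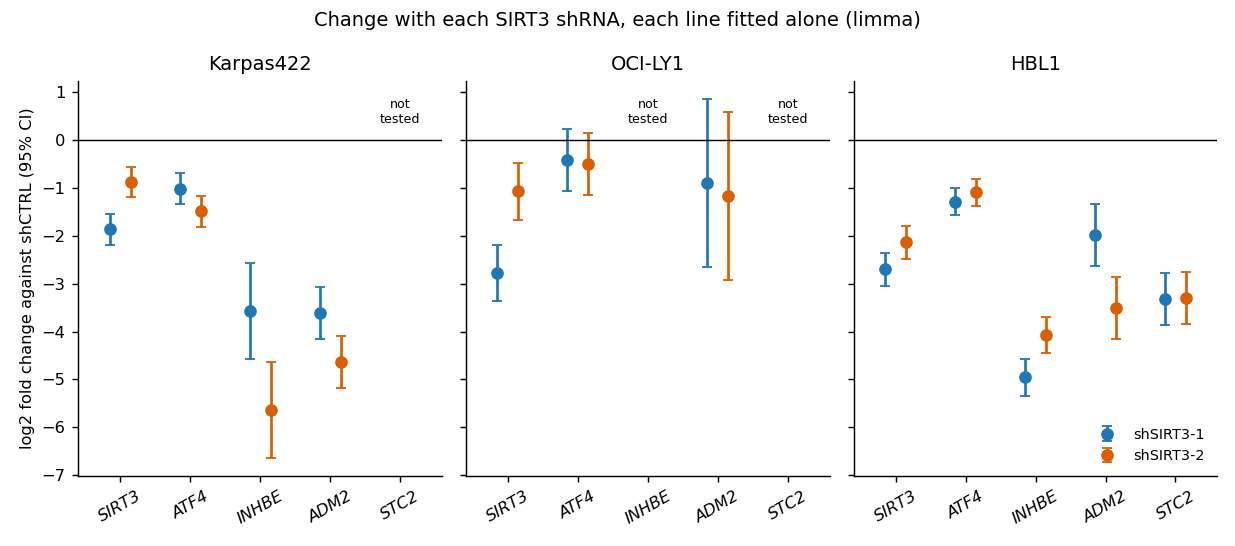
Log2 fold change against shCTRL with its 95% confidence interval, from limma in each line alone, for SIRT3, ATF4, INHBE, ADM2 and STC2. Intervals of INHBE and ADM2 lie below -1 in Karpas422 and HBL1, those of ADM2 in OCI-LY1 cross 0, and a gene that did not pass the filter of its line is written as not tested.

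The response to the hairpins was compared between lines with an F test on the interaction of line and shRNA, which 41.8% of all genes passed at an adjusted p under 0.05. The adjusted p was 0.0132 for ADM2 and 0.0351 for INHBE. For STC2 it was 2.76e-07, but STC2 passed the filter through HBL1 alone and had no level from which it could fall in the other lines, so that value restates where the gene is present. The mean response to both hairpins was then set against each other line by line for INHBE and ADM2, a contrast chosen after the values had been seen. For ADM2, Karpas422 responded more than OCI-LY1 by -3.08 on the log2 scale (limma adjusted p = 0.0111), where 6.21% of genes differed. Differences from OCI-LY1 were not called for INHBE in Karpas422 (-2.76, limma adjusted p = 0.101) or HBL1 (-2.67, limma adjusted p = 0.0683), or for ADM2 in HBL1 (-1.71, limma adjusted p = 0.0931), where 17.5% of genes differed between HBL1 and OCI-LY1. HBL1 and Karpas422 were not called apart for INHBE (0.09, limma adjusted p = 0.971) or ADM2 (1.38, limma adjusted p = 0.202), where 13.2% of genes differed.

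Without OCI-LY1 shCTRL replicate 2, ADM2 responded more than in OCI-LY1 by -4.26 in Karpas422 (limma adjusted p = 1.83e-07) and by -2.89 in HBL1 (limma adjusted p = 1.11e-05). ADM2 then also responded less in HBL1 than in Karpas422, by 1.38 (limma adjusted p = 0.00809). The other 2 OCI-LY1 controls held so little INHBE that it could fall by at most 1.75 on this scale. A fall as large as in Karpas422 or HBL1 could therefore not be seen there. The differences from OCI-LY1 of -4.46 for Karpas422 and -4.37 for HBL1 are given with no test for that reason. Of all genes, 14.2% then differed between HBL1 and Karpas422, 19.1% between HBL1 and OCI-LY1 and 9.54% between Karpas422 and OCI-LY1.

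The SIRT3 hairpins were also compared with each other. Over 3 lines SIRT3 was higher with shSIRT3-2 than with shSIRT3-1 by 1.08 on the log2 scale (SE 0.17, limma adjusted p = 4.57e-05), and none of the hormone genes was called between hairpins, where 11.3% of all genes were. The difference of ADM2 was -0.93 (95% CI -1.81 to -0.05, limma adjusted p = 0.0970), and it was called without OCI-LY1 (limma adjusted p = 0.00216). Within Karpas422, where 11.5% of genes were called between hairpins, INHBE was lower with shSIRT3-2 by -2.06 (SE 0.45, limma adjusted p = 0.0122) and ADM2 by -1.02 (SE 0.24, limma adjusted p = 0.0163), while SIRT3 was higher with shSIRT3-2 by 0.99 (SE 0.14, limma adjusted p = 0.00249). The difference of ADM2 there rests on 5 to 33 reads a library, and it was -0.22 with a pseudocount of 1 (adjusted p = 0.174), -0.26 after quantile normalization (adjusted p = 0.526) and -1.90 in DESeq2 (adjusted p = 0.000153). Within HBL1, where 27.9% were called, ADM2 was lower with shSIRT3-2 by -1.51 (SE 0.29, limma adjusted p = 0.00496) and INHBE was higher by 0.88 (SE 0.17, limma adjusted p = 0.00538), or by 0.47 and not called with a pseudocount of 1. STC2 in HBL1 was not called between hairpins (0.02, 95% CI -0.53 to 0.57, limma adjusted p = 0.952). The opposite order of INHBE in HBL1 and Karpas422 was a difference of 2.94 (limma adjusted p = 0.0668), and without OCI-LY1 shCTRL replicate 2 its adjusted p was 0.000971, where 23.4% and 24.2% of genes differed. In a model of all 9 groups the hairpins were not called apart for INHBE in either line (adjusted p = 0.0819 and 0.392) or for ADM2 in Karpas422 (adjusted p = 0.226), while ADM2 in HBL1 was (limma adjusted p = 0.0326).

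GDF15 could be tested only with no filter on low values, and its estimates rest on the few reads given above and depend on the added 0.1 CPM. It was called lower in HBL1 with shSIRT3-1 (-1.18, SE 0.32, limma adjusted p = 0.0261), where 12.5% of genes were, and not with shSIRT3-2 (0.13, SE 0.32, limma adjusted p = 0.823). In Karpas422 the change with shSIRT3-1 was 1.56 (SE 0.51, limma adjusted p = 0.0654). The hairpins were called apart in both lines, with GDF15 higher with shSIRT3-2 in HBL1 by 1.32 (limma adjusted p = 0.0201) and lower in Karpas422 by -2.02 (limma adjusted p = 0.0348), where 17.3% and 6.95% of genes were. The response of GDF15 differed between lines (limma adjusted p = 0.00216), as it did for 27% of genes. Over 3 lines the estimates were 0.06 (adjusted p = 0.952) and -0.18 (limma adjusted p = 0.780).

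ATF4 was at 329, 372 and 278 CPM with shCTRL in Karpas422 and at 280, 289 and 342 CPM in HBL1, and in OCI-LY1 at 152, 326 and 129 CPM. With shSIRT3-1 it was between 134 and 185 CPM in Karpas422, between 123 and 150 in OCI-LY1 and between 116 and 138 in HBL1. With shSIRT3-2 it was between 104 and 122 CPM in Karpas422, between 116 and 147 in OCI-LY1 and between 127 and 158 in HBL1. After knockdown the 3 lines thus overlapped, and OCI-LY1 shCTRL replicates 1 and 3 were already in that range. ATF4 changed by -0.91 over 3 lines with shSIRT3-1 (SE 0.15, limma adjusted p = 5.34e-05) and by -1.03 with shSIRT3-2 (SE 0.15, limma adjusted p = 1.42e-05). Fitted alone, Karpas422 and HBL1 gave a call with each hairpin. OCI-LY1 alone gave none (-0.42, limma adjusted p = 0.366, and -0.50, limma adjusted p = 0.272). Without shCTRL replicate 2 the OCI-LY1 control mean was 140 CPM, against 139 with shSIRT3-1 and 131 with shSIRT3-2.

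Across the 27 libraries, after the mean of each line was subtracted from log2(CPM + 0.1), the Pearson r with ATF4 was 0.966 for INHBE, 0.907 for ADM2 and 0.606 for STC2. With SIRT3 it was 0.644, 0.569 and 0.615. Without OCI-LY1 shCTRL replicate 2, r with ATF4 was 0.960, 0.889 and 0.612. Among themselves the hormone genes gave 0.898 for INHBE and ADM2, 0.623 for INHBE and STC2 and 0.492 for ADM2 and STC2. These are descriptions over libraries that share hairpins and lines, and they carry no p. For STC2, close to absent in Karpas422 and OCI-LY1, r rests mainly on the 9 HBL1 libraries. Variation of the other gene outside HBL1 can lower that r, so it is not comparable with those of INHBE and ADM2.

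**Figure D3:**
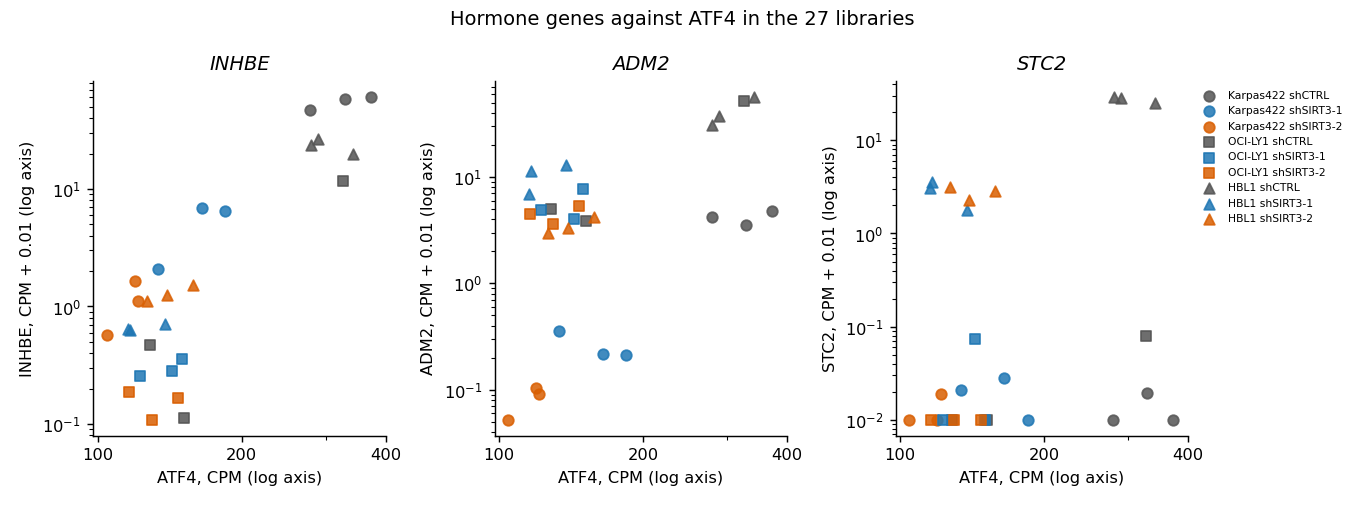
INHBE, ADM2 and STC2 as CPM plus 0.01 against ATF4 in CPM, both on log axes, 1 point per library with the shape for the line and the color for the hairpin. The shCTRL libraries of Karpas422 and HBL1 and OCI-LY1 shCTRL replicate 2 lie at 278 CPM of ATF4 or above, and the other libraries at 185 CPM or below.

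The genes whose pattern was most like that of INHBE were CEBPB (r = 0.976), a transcription factor of the C/EBP family, CHAC1 (0.972), an enzyme that breaks down glutathione, INHBC (0.967), ATF4 (0.966) and SPNS3 (0.961), over 27 libraries. For ADM2 they were RNF187, TSEN15 and TRIB3 (0.944 each), GDAP1L1 (0.939) and LOC102724467 (0.938). TRIB3 is a pseudokinase of the stress response. For STC2 they were ASS1 (0.971), an enzyme of arginine synthesis, PAK3 (0.970), PLOD2 (0.968), a lysyl hydroxylase of collagen, CTNNA2 (0.957) and FLT1 (0.952), a receptor for VEGF. Since STC2 was close to absent outside HBL1, this ranking favors genes that vary mostly in HBL1.

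Other genes of the stress response were described by lists written from general knowledge. Of the 30 ATF4 targets and integrated stress response genes, 29 passed the filter. With shSIRT3-1, 27 were called lower and 0 higher, where 9.09% of all genes were called lower and 3.92% higher. With shSIRT3-2, 29 were called lower and 0 higher, where 10.2% of all genes were called lower and 3.29% higher. Their median log2 fold changes were -1.76 and -1.54, where those of all genes were -0.05 and -0.03. The counts were equal without OCI-LY1 shCTRL replicate 2. The largest changes called with both hairpins were CHAC1 at -3.74 and -4.25, SLC6A9, a glycine transporter, at -3.59 and -3.95, CTH, an enzyme of cysteine synthesis, at -2.95 and -3.11, and CEBPB at -2.67 and -2.92. The list was not chosen independently of these data, and the change of INHBE with shSIRT3-1 lay between those of SLC6A9 and CTH.

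Other stress pathways were counted in the same way. Of all genes, 9.09% were called lower and 3.92% higher with shSIRT3-1, and 10.2% lower and 3.29% higher with shSIRT3-2. Of 13 genes of the ATF6 and XBP1 branches of the unfolded protein response, 1 was lower and 1 higher with shSIRT3-1, and 4 were lower and 1 higher with shSIRT3-2. With both hairpins XBP1, a transcription factor of that response, changed by -0.83 and -1.01, and HSPA5, the chaperone BiP of the endoplasmic reticulum, by 0.82 and 0.88. Of 11 p53 targets, 5 were lower with shSIRT3-1 and 2 with shSIRT3-2, against 9.09% and 10.2% of all genes called lower. Called with both were CDKN1A, a cell cycle inhibitor, at -1.27 and -1.66, and BBC3, a pro-apoptotic BCL2 relative, at -0.94 and -1.12. Of 11 HIF1 targets, 10 passed the filter, and 1 was lower with each hairpin, ANKRD37 with shSIRT3-1 (-0.71) and CA9 with shSIRT3-2 (-1.41).

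**Figure D4:**
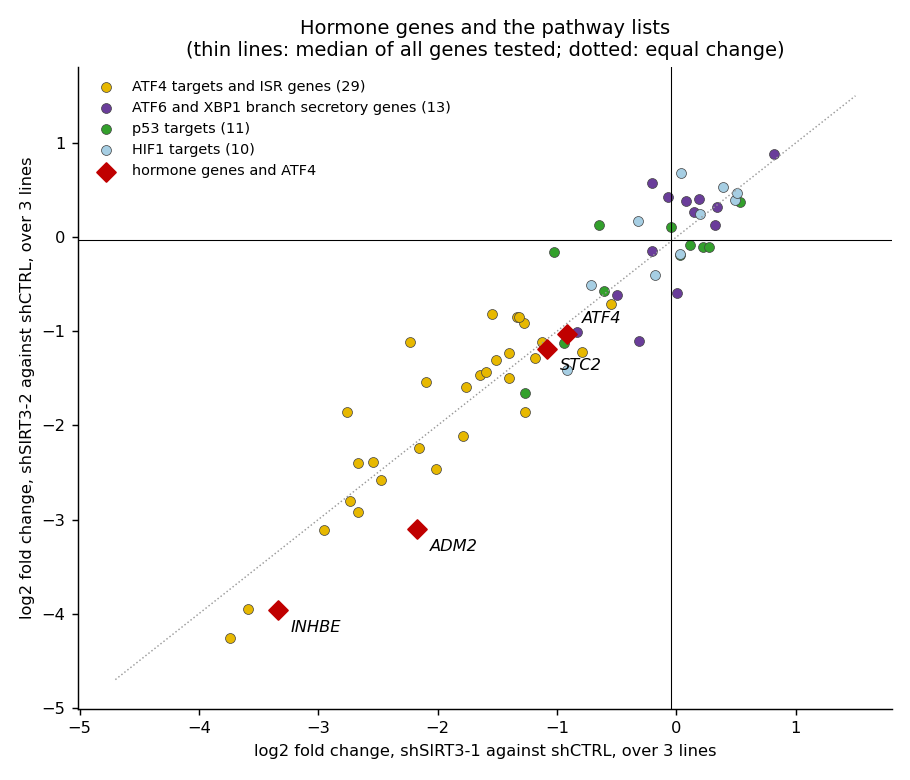
Log2 fold change over 3 lines with shSIRT3-1 on the x axis and with shSIRT3-2 on the y axis, with diamonds for INHBE, ADM2, STC2 and ATF4. The other points are the genes of the ATF4, ATF6 and XBP1, p53 and HIF1 lists that passed the filter, not all genes tested. Thin lines mark the median of all genes tested and the dotted line equal change, and the 29 ATF4 list genes lie below and to the left of both medians.

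Of 9 other secreted factors linked to stress, 2 passed the filter. VEGFA, an angiogenic growth factor, fell with both hairpins (-2.18 and -1.99), and ADM, the closest relative of ADM2, was not called (-0.15, limma adjusted p = 0.808, and 0.34, limma adjusted p = 0.563). FGF21, an endocrine factor of the liver that is also an ATF4 target, did not exceed 0.0711 CPM in any library.

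Relatives and partners of each hormone were counted next. Of all genes, 9.09% were called lower and 3.92% higher with shSIRT3-1, and 10.2% lower and 3.29% higher with shSIRT3-2. The share called with both hairpins was not counted. Of 16 relatives, receptors and inhibitors of the activins, 11 passed the filter, and 1, INHBC, was lower with both hairpins, by -2.52 and -3.07. INHBA and INHBB, the chains of the activins best studied, did not exceed 0.0107 and 0.119 CPM. The activin type II receptor ACVR2B changed by -0.64 with shSIRT3-1 (limma adjusted p = 0.000857) and was not called with shSIRT3-2 (-0.26, limma adjusted p = 0.138), and follistatin (FST), which binds activins, was called higher with shSIRT3-2 alone (0.90, limma adjusted p = 0.0199). SMAD7, an inhibitor of the pathway, was called lower with shSIRT3-1 alone (-1.27, limma adjusted p = 0.00972).

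The GDF15 receptor GFRAL and its partner RET did not exceed 0.0188 and 0.0180 CPM, and of 6 genes of GDF15 reception and processing 2 passed the filter. With each hairpin 1 of these was lower, where 9.09% and 10.2% of all genes were. They were FURIN with shSIRT3-1 (-0.62) and PCSK7 with shSIRT3-2 (-0.71), both proprotein convertases. Of 9 calcitonin family peptides and receptors, 3 passed, and the ADM2 receptor CALCRL was called lower over 3 lines with both hairpins (-0.92 and -1.20). Its highest level was 2.00 CPM, and it reached 1 CPM in only 3 of the 27 libraries, the fewest that pass the filter. Its response differed between lines (limma F test, adjusted p = 0.000163), as did that of 41.8% of genes, so the average does not describe each line. Of the 6 genes around STC2, 2 passed, and 0 were called. The pappalysins PAPPA and PAPPA2 did not exceed 0.182 and 0.0636 CPM, and STC1, the paralog of STC2, did not exceed 0.678 CPM.

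INHBE and ADM2 have close neighbors whose reads could bear on their counts, since strand use in the counting is not given in the sources used here. INHBC ends 260 bases before INHBE on the same strand. In Karpas422 it was at 7.91 ± 0.876 CPM with shCTRL, 2.24 ± 0.833 with shSIRT3-1 and 0.781 ± 0.349 with shSIRT3-2 (SD, n = 3 each), and in HBL1 at 7.46 ± 0.385, 0.319 ± 0.0943 and 0.449 ± 0.0516 CPM. The order of the hairpin means in each line was that of INHBE. GLI1 begins 504 bases after INHBE on the same strand, and its mean in Karpas422 was 82.4% of control with shSIRT3-1 and 16.4% with shSIRT3-2, where INHBE was at 9.31% and 1.98%. In HBL1 it was at 47.6% and 28.6%, the opposite order to INHBE at 2.80% and 5.54%. Whether transcripts run through INHBC and INHBE was not tested.

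In GENCODE, SBF1 overlaps the first 2381 bases of the ADM2 locus on the opposite strand. It lay above the highest shCTRL library of its line in 16 of 18 knockdown libraries and in 0 below the lowest, while ADM2 lay below the lowest in 13. These counts were not made over all genes. MIOX, which begins 343 bases after ADM2, was at 103% and 126% of its control mean with shSIRT3-1 in Karpas422 and HBL1 and at 59.1% and 46.1% with shSIRT3-2.

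**Figure D5:**
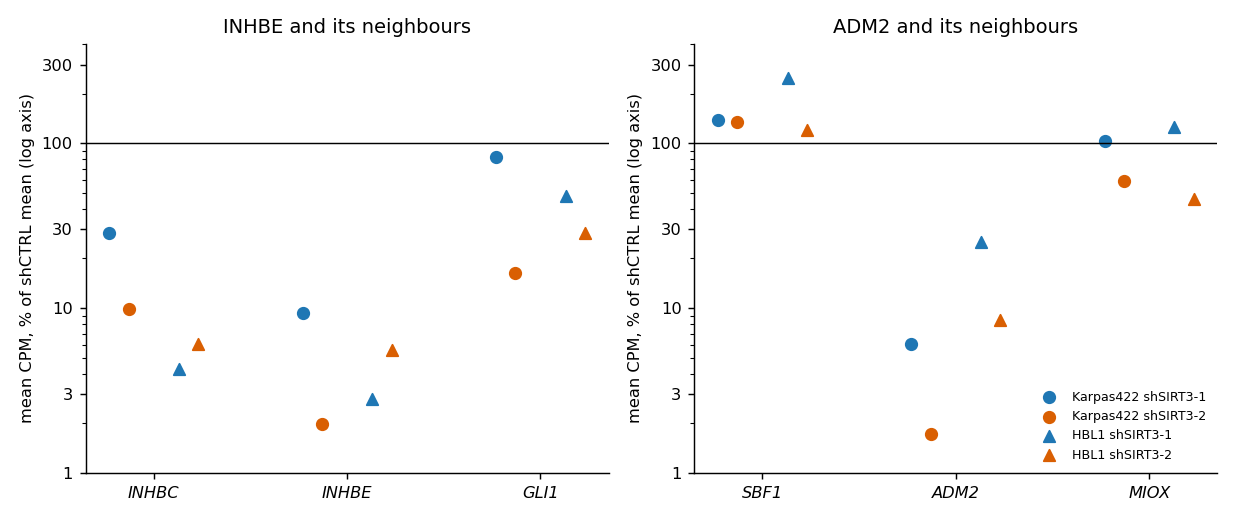
Mean CPM of each gene in the knockdown groups as a percent of the shCTRL mean, on a log axis, for INHBE and ADM2 between their neighbors in Karpas422 and HBL1, with a line at 100%. INHBC lies between 4.28% and 28.3%, near INHBE, while SBF1 lies above 100% and ADM2 between 1.73% and 25.0%.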

How the data were processed

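The authors prepared libraries from total RNA, read both ends of each fragment, mapped them to hg19 using STAR, and counted RefSeq genes using Rsubread. The deposited values are named FPKM, but per the file values they are CPM: in all 27 libraries every value was a whole multiple of 1 step (100% whole, tolerance 1e-06 reads) for genes of any length. Reads were recovered with that step. Reads on genes made up from 40.3% to 45.6% of the divisor behind the deposited CPM, and what that divisor counts is not given in the sources used here. The planned tests had been written for FPKM and were applied unchanged.

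Values were analyzed as log2(CPM + 0.1) with limma 3.58.1 in R 4.3.3, with a trend of variance on mean. A gene was tested where 3 or more fitted libraries had it at 1 CPM or above (13076 genes for all 27 libraries). The design over 3 lines was additive, with line and shRNA, as in the study, and separate fits were made for the 3 lines. A call required an adjusted p (Benjamini-Hochberg, over all genes tested) under 0.05 and a change of over 1.5-fold. A fold change on this scale understates changes of low genes. Alternatives included edgeR 4.0.16 and DESeq2 1.42.0 on the recovered reads. Scripts were tested on simulated data. Counting limits cover counting error only, since reads are not independent molecules. Coordinates on hg19 are those of GENCODE 44, and per-length levels used the union of exons.

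The 4 genes, the lists and the contrasts were chosen with earlier results of these data known. Besides these genes, SIRT3 and ATF4, the text names up to 4 genes of each list with the largest mean change called alike with both hairpins, and the 5 genes with the highest r for each hormone gene that passed the filter. Other genes were named after their values were seen: neighbors, partners and marker genes, ANKRD37 and CA9, and ASNS, ATF3, CEBPG and JDP2 for their promoters.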

Additional observations from a re-analysis of the deposited data

Results flagged for a closer look

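The response to the SIRT3 hairpins differed between the 3 lines by an F test on the interaction of line and shRNA in limma. The adjusted p was 0.0351 for INHBE, 2.76e-07 for STC2 and 0.0132 for ADM2, in a test that 41.8% of all genes passed. The value of STC2 restates that the gene was present in HBL1 alone, since it could not fall in the other lines. INHBE and ADM2 were lower in 6 of 6 knockdown libraries than in every control of Karpas422 and of HBL1, and in 1 of 6 in OCI-LY1. The share of all genes that separate in this way was not counted. Without OCI-LY1 shCTRL replicate 2 the adjusted p was 9.34e-07 for ADM2, while INHBE could then fall by at most 1.75 on the log2 scale in OCI-LY1, so no value is given for it. The call of INHBE was lost in 14 of 39 alternatives, among them edgeR (0.221) and DESeq2 (0.210). It was lost without any 1 of 8 other libraries (adjusted p between 0.0508 and 0.0851): Karpas422 shCTRL replicate 2 and shSIRT3-2 replicates 1 and 3, OCI-LY1 shCTRL replicates 1 and 3, and HBL1 shCTRL replicate 2, shSIRT3-1 replicate 1 and shSIRT3-2 replicate 1. That of STC2 was lost in edgeR (0.102) and in DESeq2 (0.0519), and that of ADM2 with a pseudocount of 1 (0.127) and without replicate 1 (0.283) or replicate 3 (0.196) of every group.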

How the results depend on the processing

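The calls of INHBE and ADM2 over 3 lines, averages that need not hold in each line, were kept with each hairpin in all 43 alternatives. Of the hormone genes tested over 3 lines, 3 were called with each hairpin, and between 2 and 3 when libraries were left out. The 10 calls within lines, of which those of ADM2 in Karpas422 rest on a gene that passed the filter through its controls alone, ranged from 8 to 10 when libraries were left out. Between hairpins over 3 lines, 0 genes were called, but 1, ADM2, without OCI-LY1 and with only the 2 shRNAs compared, and between 0 and 1 when libraries were left out. The response differed between lines for 3 genes, in a test that 41.8% of all genes passed. Among the 3 is STC2, whose value only restates where the gene is present. The count was 1, ADM2, in edgeR and in DESeq2, and between 1 and 3 when libraries were left out. Among control cells, 6 differences were called, and between 2 and 7 when libraries were left out. Of all genes, 50.8% were called for OCI-LY1 against Karpas422 and 54.6% for HBL1 against each other line. The 6 include STC2 in HBL1 against each other line, which only restates that STC2 passed the filter through the HBL1 controls. They also include INHBE in OCI-LY1 against each other line, where INHBE passed the filter through those other lines. Of the ATF4 list, 27 genes were lower with shSIRT3-1 (24 to 29 when libraries were left out) and 29 with shSIRT3-2 (18 to 29, with 18 without replicate 2 of every group). Of all genes, 9.09% and 10.2% were called lower with these hairpins over 3 lines. STC2 with shSIRT3-2 over 3 lines lost its call without replicate 1 or replicate 2 of every group, and INHBE between hairpins lost its call in 4 of 22 alternatives in Karpas422 and in 4 of 22 in HBL1. ADM2 between hairpins lost its call in 3 of 16 alternatives in Karpas422 and, in HBL1, without replicate 1 of every group (adjusted p = 0.0917). The cause of these changes was not tested, apart from the smaller number of libraries.

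Values that changed sign were all without a call. STC2 between hairpins in HBL1 was -0.065 in edgeR and -0.058 in DESeq2, and ranged from -0.29 to 0.34 when libraries were left out. ADM2 in OCI-LY1 ranged from -1.58 to 0.27 with shSIRT3-1, from -1.85 to 0.010 with shSIRT3-2 and from -0.46 to 0.0026 between hairpins when libraries were left out. The highest values against the controls came without shCTRL replicate 2. STC2 in OCI-LY1 against Karpas422 controls ranged from -0.043 to 0.34, and between hairpins over 3 lines from -0.28 to 0.050, when libraries were left out. INHBE between hairpins over 3 lines was 0.099 without Karpas422.

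With the number as a replicate block, 3 hormone genes were called with each hairpin over 3 lines and 10 calls were made within lines, equal to the fit without it, and the block changed no other call. Samples of the same number deviated together in 26 of 27 pairs (r over 0.1, mean 0.32, lowest 0.014), and 47 of 54 best partners had the same number, a hint from the data and not from the design. A block could not be fitted for the comparison of control cells between lines. At these depths 3 reads correspond to at most 0.0472 CPM, so changes of GDF15, and of STC2 outside HBL1, below that level were not detectable.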
